A study of Mus musculus with 6 samples.

Results

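The genes described here are 9 components and regulators of the complement system, *C1qa*, *C1qb*, *C1qc*, *C4b*, *C2*, *C3*, *Cfb*, *Serping1* and *C3ar1*, taken by gene symbol from a table of 37310 genes. They were measured in whole brain from 12-week-old male C57BL/6 mice, by sequencing of ribosome-depleted total RNA, in 3 *Adar1* E861A/E861A *Ifih1*-/- libraries and 3 *Adar1* +/+ *Ifih1*-/- libraries (wild type for *Adar1*, and called wild type), each from a separate mouse. The E861A allele is a germline point mutation that abolishes RNA editing by ADAR1, the enzyme that converts adenosine to inosine in double-stranded RNA. Mice of either genotype were null for *Ifih1*, the gene for MDA5, a cytosolic sensor of double-stranded RNA, and no *Ifih1* +/+ brain entered the comparison, so the values concern loss of editing on an MDA5-deficient background only. The question was whether transcripts of the complement system differ between brains with and without ADAR1 editing.

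Complement is a cascade of plasma and tissue proteins that tags targets for removal. C1q, a hexamer of trimers built from the products of *C1qa*, *C1qb* and *C1qc*, opens the classical pathway. The C1 proteases then cleave C4 and C2, whose fragments form the enzyme that splits C3, and factor B (*Cfb*) takes the place of C2 in the alternative pathway. The C1 inhibitor (*Serping1*) blocks the C1 proteases, and *C3ar1* encodes the receptor for the C3a fragment. In brain, C1q is made chiefly by microglia, and complement is known for marking synapses that are removed during development. Several complement genes, *Serping1* and *Cfb* among them, respond to interferon in many cell types.

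*C4b* was the member with a called difference, meaning an adjusted p under 0.05 over all genes tested. It was higher in all 3 *Adar1* E861A libraries, at 1.91-fold the wild-type mean. *Serping1* and *C3* were also higher in each *Adar1* E861A library than in any wild-type library, by 1.34-fold and 1.55-fold, but did not pass the adjusted threshold. The groups overlapped for the 3 C1q chains and *C3ar1*, *C2* was low, and *Cfb* was near the floor of 3 counts.

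Levels are CPM, the counts of a gene divided by its library's total and put on a common scale, adjusted by TMM factors between 0.986 and 1.02. Total counts per library were between 26853488 and 36285305 in *Adar1* E861A brain and between 35702138 and 38076753 in wild-type brain, so 3 counts, taken as the floor, corresponded to at most 0.112 CPM. Mitochondrial genes took 11.02% to 13.8% of the counts. *Adar1* E861A replicate 1 stood apart, since transcripts of the pituitary list summed to 429.9 CPM there and to between 1.28 and 3.35 CPM in the other libraries. Markers of neurons, astrocytes, oligodendrocytes and microglia were present in every library. In a whole tissue, fewer cells of a type and less RNA per cell cannot be told apart.

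*C4b* (ENSMUSG00000073418) encodes complement C4, the shared component of the classical and lectin pathways. It lies on the minus strand of chromosome 17 at 34865325 to 34880827 (NCBIM37, GENCODE vM1), in the MHC class III region. Its paralog *C4a* (ENSMUSG00000015451; chromosome 17, 34946037 to 34960409) lies 65209 bp away, beyond *Cyp21a1*, and is annotated as a processed transcript. Since the reads were 75 bases long, the likeness of the 2 genes bears on how far their counts can be told apart. Each of the 41 coding blocks of *C4b* was placed without gaps at its best match in *C4a*, and 254 of 5223 bases differed, an identity of 95.14%. Without the 2 blocks under 85% identity, 175 of 4898 bases differed (96.43%). Of the 75-base windows inside single exons of *C4b*, 20.7% occurred unchanged in *C4a*. The windows leave out exon junctions and the pairing of reads, so this share does not measure how many *C4b* reads were lost. A stretch of coding block 21 is shown, which had the most differences among stretches of 75 bases in the 39 blocks at or above 85% identity without a run of dense mismatches, at chr17:34872355-34872429 for *C4b* and chr17:34953011-34953085 for *C4a*, both read 5′ to 3′ on the minus strand, with the 13 bases that differ in capitals, because reads from such stretches can be placed on one gene.
C4b: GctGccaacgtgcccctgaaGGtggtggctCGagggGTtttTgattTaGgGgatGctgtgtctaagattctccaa
C4a: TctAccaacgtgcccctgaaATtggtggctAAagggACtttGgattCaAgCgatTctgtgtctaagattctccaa

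*C4b* had 788, 1118 and 887 counts in *Adar1* E861A replicates 1 to 3 and 522, 687 and 549 counts in wild-type replicates 1 to 3. In scaled units these were 26.8, 31.2 and 33.4 CPM against 14.2, 18.3 and 15.3 CPM. All 3 *Adar1* E861A libraries were above all 3 wild-type libraries, and the gap between the groups was wider than the spread within either. The means were 30.4 ± 3.36 CPM (SD, n = 3) and 16.0 ± 2.10 CPM (SD, n = 3). The log2 fold change was 0.93 ± 0.09 (SE), with a 95% interval of 0.73 to 1.13 and an adjusted p of 1.42e-04 by edgeR's quasi-likelihood test over 13649 genes. Without *Adar1* E861A replicate 1, the library with pituitary transcripts, the log2 fold change was 1.01 and the adjusted p 8.27e-05. The exact two-sided permutation test gave p = 0.1, the smallest value that 3 against 3 libraries allow.

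*C4a* did not reach the level of *C4b* in any library. It had 54, 45 and 43 counts in *Adar1* E861A brain and 47, 53 and 48 counts in wild type, and the groups overlapped. It failed the filter for tested genes, which asked for 2 CPM or more in the 3 libraries of a genotype (the CPM filter), and in a second fit over the 19366 genes kept by edgeR's filterByExpr its log2 fold change was 0.20, with an adjusted p of 0.837. The number of *C4b* counts for each *C4a* count was 14.6, 24.8 and 20.6 in *Adar1* E861A brain and 11.1, 13.0 and 11.4 in wild type. All 3 *Adar1* E861A ratios were above the wild-type ratios, with the lowest in *Adar1* E861A replicate 1. Reads that fit both genes equally would not have been counted for either under STAR's gene counting, which takes uniquely mapped reads.

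**Figure D1:**
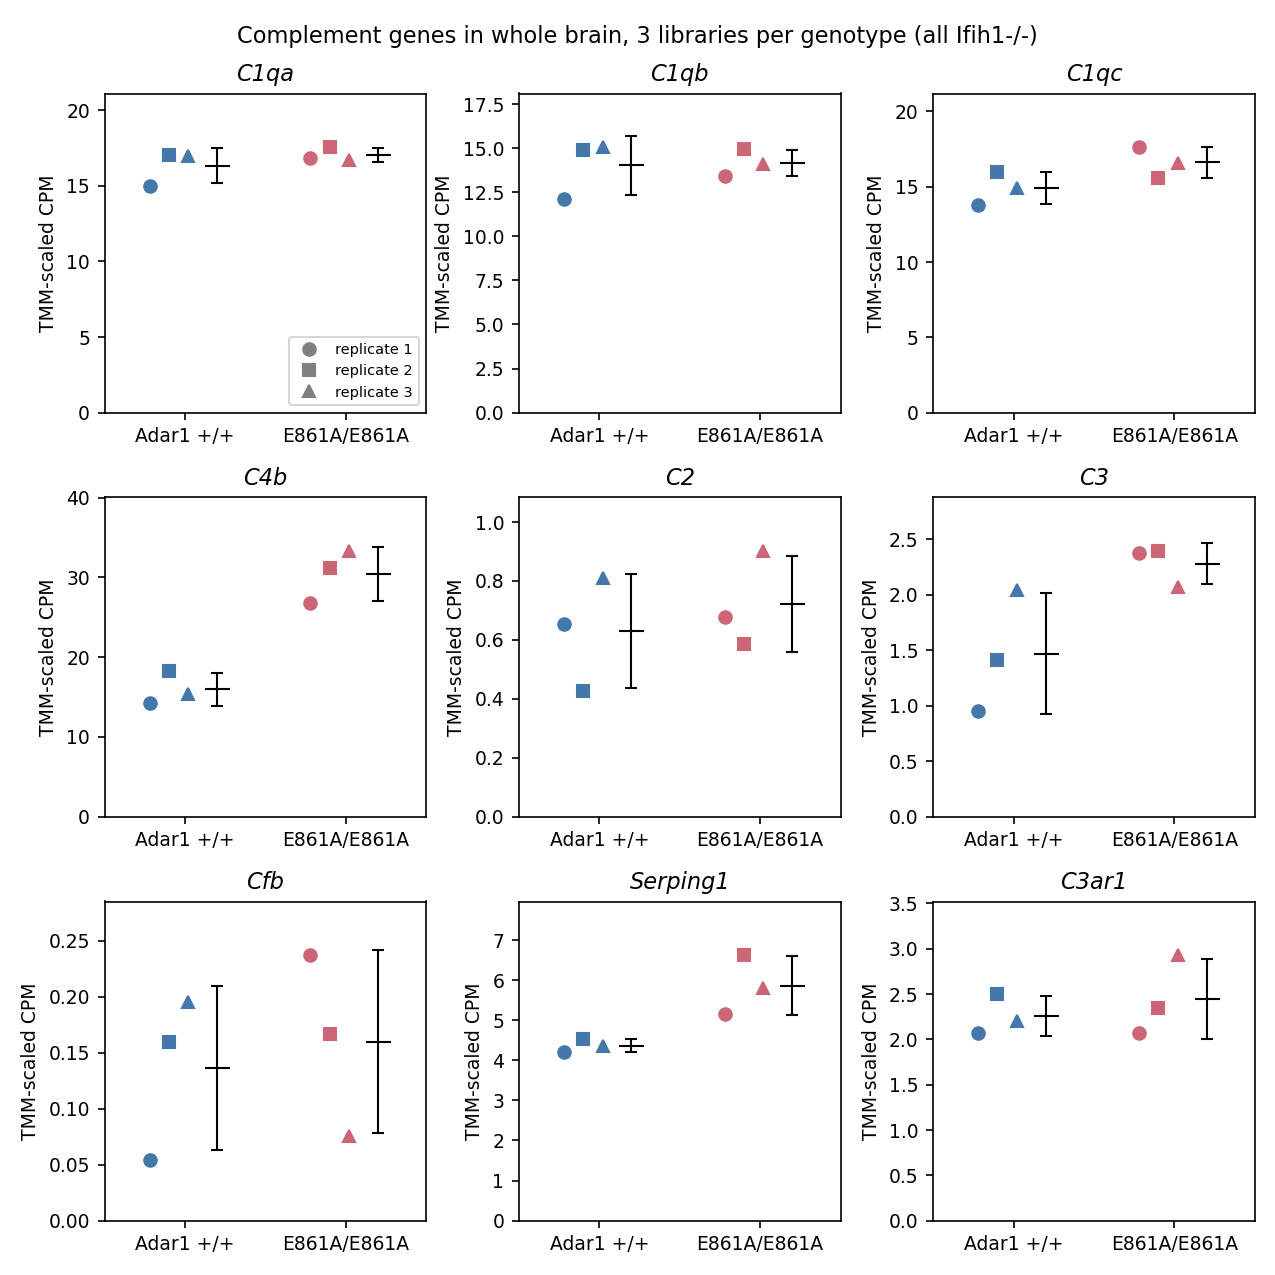
Scaled CPM of the 9 genes in each library, on axes that start at 0, with wild type in blue, *Adar1* E861A in red, a symbol for each replicate number, and the mean ± SD in black (n = 3). The groups are separate for *C4b*, *Serping1* and, by a narrow margin, *C3*, and overlap in the other 6 panels.

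The C1q chains are encoded next to each other on the minus strand of chromosome 4, in the order *C1qb* (ENSMUSG00000036905; 136436044 to 136442102), *C1qc* (ENSMUSG00000036896; 136445719 to 136448980) and *C1qa* (ENSMUSG00000036887; 136451832 to 136454718), within 18675 bp. *C1qa* had 16.8, 17.6 and 16.7 CPM in *Adar1* E861A brain and 15.0, 17.03 and 16.98 CPM in wild type. *C1qb* had 13.4, 14.9 and 14.1 CPM against 12.1, 14.9 and 15.1 CPM. *C1qc* had 17.7, 15.6 and 16.6 CPM against 13.8, 16.0 and 14.9 CPM. The groups overlapped for each chain, and wild-type replicate 1 was the lowest of the 6 libraries for all 3. The log2 fold changes were 0.06 ± 0.07, 0.02 ± 0.09 and 0.15 ± 0.08 (SE) for *C1qa*, *C1qb* and *C1qc*, and none passed the threshold by edgeR, with adjusted p of 0.824, 0.976 and 0.575. Their 95% intervals were -0.09 to 0.22, -0.18 to 0.21 and -0.01 to 0.32, so a difference of the size seen for *C4b* lay outside each of them. Summed over the 3 chains the level was 47.9, 48.1 and 47.4 CPM in *Adar1* E861A brain and 40.9, 47.9 and 47.0 CPM in wild type.

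Within a library the chains had counts of similar size, and their ratios overlapped between the genotypes. *C1qa* had between 1.18 and 1.25 counts for each *C1qb* count in *Adar1* E861A brain and between 1.13 and 1.24 in wild type, and *C1qc* had between 1.05 and 1.31 against between 0.991 and 1.14. The ratio of *C4b* to *C1qa*, the classical pathway's C4 set against its recognition molecule, was 1.59, 1.77 and 1.99 in *Adar1* E861A brain and 0.951, 1.08 and 0.903 in wild type. The 2 groups were separate for this ratio, also for *C4b* over *Serping1*, which was between 4.70 and 5.76 against between 3.39 and 4.04. Of the summed CPM of the 9 genes, *C4b* took 31.4%, 34.1% and 36.0% in *Adar1* E861A brain and 22.6%, 24.3% and 21.3% in wild type.

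**Figure D2:**
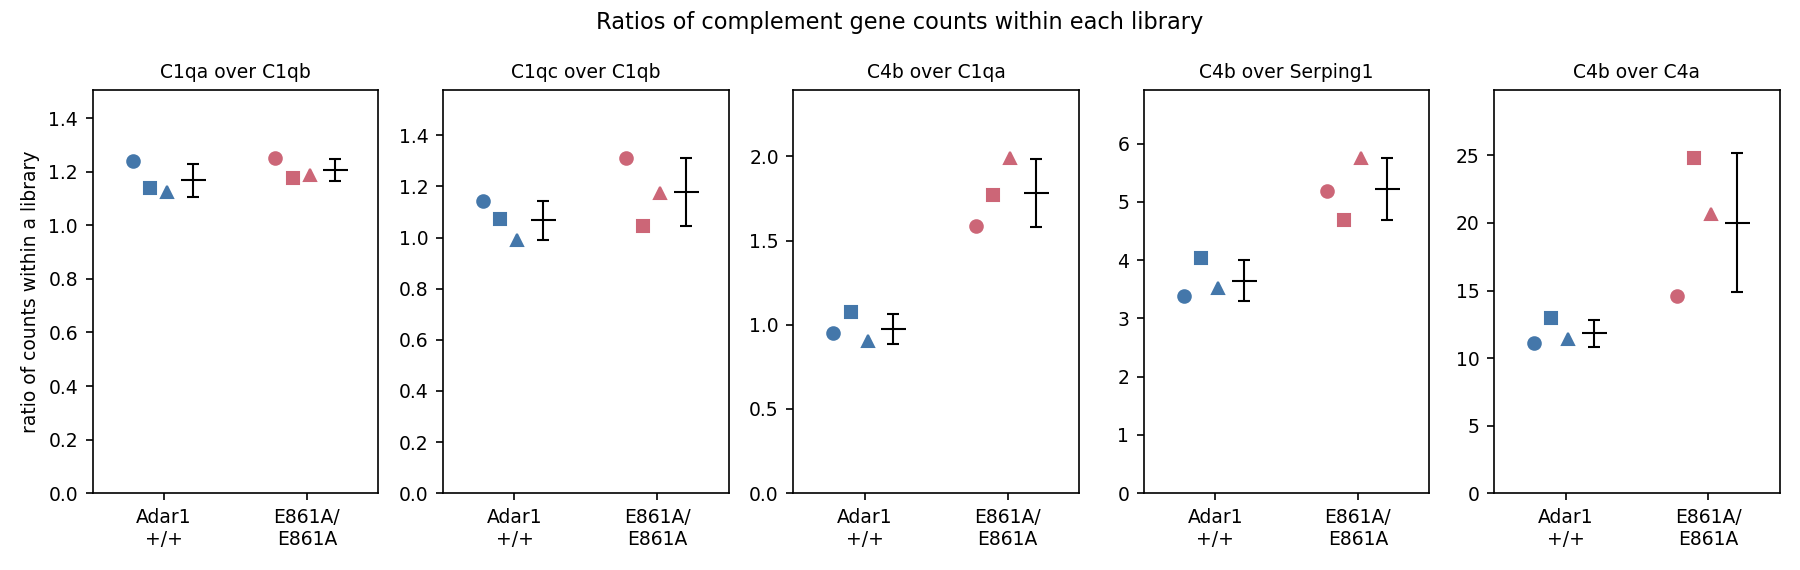
Ratios of raw counts of complement genes within each library, on axes that start at 0, with wild type in blue, *Adar1* E861A in red, circles, squares and triangles for replicates 1, 2 and 3, and the mean ± SD in black (n = 3). The C1q chain ratios overlap between genotypes, and the ratios with *C4b* on top are higher in every *Adar1* E861A library.

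*Serping1* (ENSMUSG00000023224; chromosome 2, 84605544 to 84615601, minus strand), the inhibitor of the C1 proteases, had 152, 238 and 154 counts in *Adar1* E861A brain and 154, 170 and 156 counts in wild type, from libraries of unequal depth. Scaled, these were 5.16, 6.63 and 5.79 CPM against 4.20, 4.53 and 4.36 CPM. The groups did not overlap, and *Adar1* E861A replicate 2 was the highest library. The means were 5.86 ± 0.739 and 4.36 ± 0.164 CPM (SD, n = 3). The log2 fold change was 0.43 ± 0.12 (SE), with a 95% interval of 0.18 to 0.69. The unadjusted p of edgeR was 0.0028, and the adjusted p of 0.238 did not pass the threshold. Blocking on the replicate number gave an adjusted p of 0.0833.

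*C3* (ENSMUSG00000024164; chromosome 17, 57343397 to 57367559, minus strand) encodes the protein on which all complement pathways converge. It had 70, 86 and 55 counts in *Adar1* E861A brain and 35, 53 and 73 counts in wild type. In scaled units these were 2.38, 2.397 and 2.07 CPM against 0.955, 1.41 and 2.04 CPM. The groups were separate by a narrow margin, since wild-type replicate 3 lay just below *Adar1* E861A replicate 3, and the wild-type libraries were the more scattered. The log2 fold change was 0.64 ± 0.22 (SE), with a 95% interval of 0.17 to 1.11 and an adjusted p of 0.386 by edgeR. Leaving out wild-type replicate 1, the lowest library, gave 0.41, and leaving out wild-type replicate 3, the highest of its genotype, gave 0.95. *C3* passed the CPM filter through the *Adar1* E861A group alone, as 1 of 3 wild-type libraries reached 2 CPM, so its presence among the tested genes already depended on its level there.

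*C3ar1* (ENSMUSG00000040552; chromosome 6, 122797156 to 122806179, minus strand), which encodes the C3a receptor found on myeloid cells, had 61, 84 and 78 counts in *Adar1* E861A brain and 76, 94 and 79 counts in wild type. Scaled levels were 2.07, 2.34 and 2.93 CPM against 2.07, 2.505 and 2.21 CPM, and the groups overlapped. The log2 fold change was 0.11 ± 0.16 (SE), with a 95% interval of -0.24 to 0.45 and an adjusted p of 0.877 by edgeR.

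The proteases of the C3-cleaving enzymes were at the bottom of the range. *C2* (ENSMUSG00000024371; chromosome 17, 34999549 to 35035397) was covered by 20, 21 and 24 counts in *Adar1* E861A brain and 24, 16 and 29 in wild type. *Cfb* (ENSMUSG00000090231; chromosome 17, 34993319 to 34999463), whose protein cleaves C3 in the alternative pathway, had 7, 6 and 2 counts against 2, 6 and 7. The groups overlapped for both genes. Neither gene passed the CPM filter. In the filterByExpr fit *C2* had a log2 fold change of 0.17 ± 0.29 (SE), with a 95% interval of -0.45 to 0.79 and an adjusted p of 0.911 by edgeR at this depth, an interval wide enough to include the value of *C3*. *Cfb* failed that filter too. In the fit of all 29282 genes with a count its log2 fold change was 0.24, with a 95% interval of -0.97 to 1.45, which covers changes of either direction.

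Values of *C2* and *Cfb* are also uncertain for their position. The genes follow each other on the minus strand with 85 bp between them, and the annotation places a further gene, *Gm20547*, across both on the same strand. It shares 2246 of the 2825 exon bases of *Cfb* and 1656 of the 4059 exon bases of *C2*, and it had 0 counts in all 6 libraries. STAR's gene counting leaves out reads that fall on more than 1 gene of a strand. The part of this overlap in the low counts was not tested. *Cfb* and *C2* lie 112491 bp beyond the end of *C4b* in the same region, and all 9 genes are transcribed from the minus strand.

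Of the 9 genes, 7 passed the CPM filter, and 1 of these was called, *C4b*, which was higher. Among all 13649 genes tested, 0.506% were called in either direction and 0.41% were called higher. The groups did not overlap for 3 of the members, all higher in *Adar1* E861A brain, where 14.2% of all tested genes did not overlap in either direction and 7.51% were higher without overlap. The log2 fold change was above 0 for all 7 tested members, and for 49.5% of all tested genes. The median was 0.154 for the members, against -0.001 over all tested genes. Leaving out single libraries turned the sign for *C1qb* and *C3ar1*. Both the count without overlap and the count above 0 include *C3*, which had entered through the group where it was high. Both counts are therefore given as descriptions. In the filterByExpr fit, which included 8 members, *C4b* was again the member called, where 0.568% of genes were called. In the fit of all genes with a count, 3 members were called, since *Serping1* and *C3* had adjusted p of 0.0411 and 0.0453, where 1.28% of genes were called. That fit used an infinite prior degree of freedom, so the spread of a gene's own libraries did not enter its p-value. The replicate block raised the number of called genes from 69 to 158 and called no other member.

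**Figure D3:**
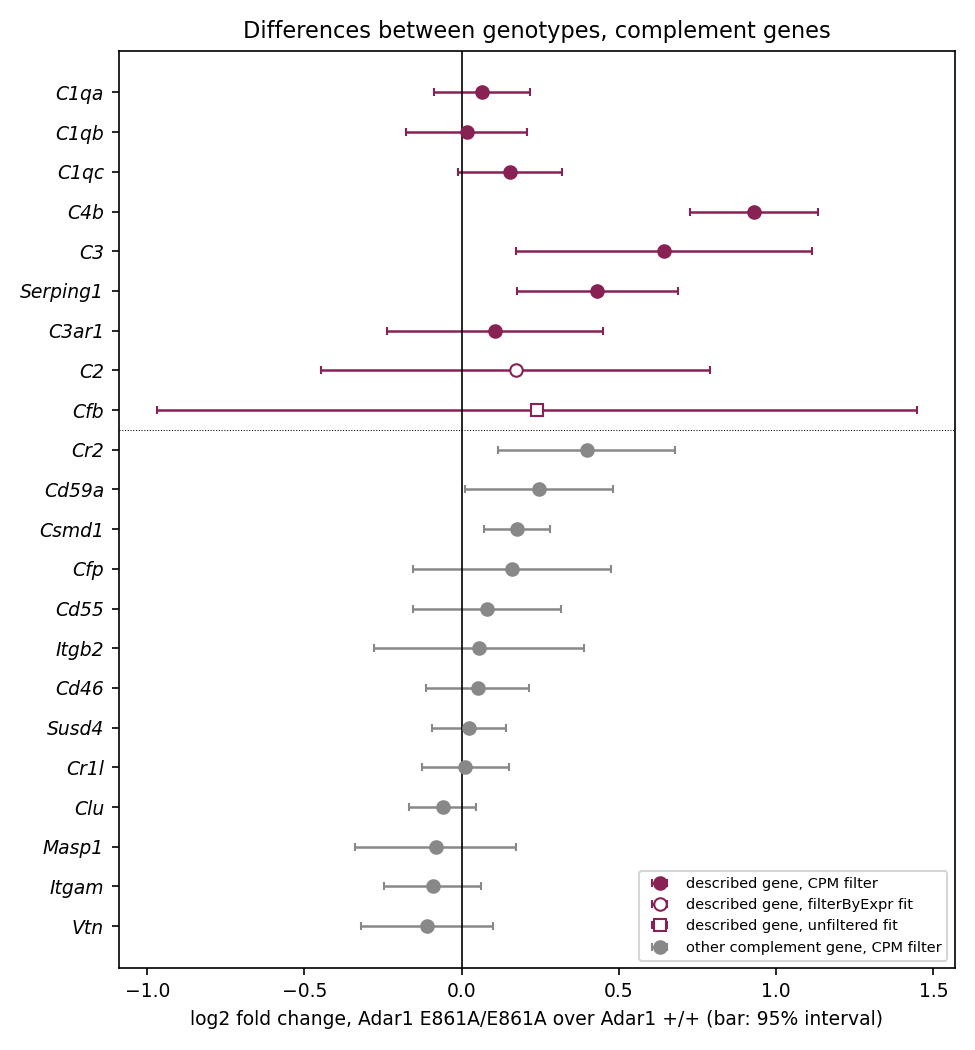
Log2 fold change of *Adar1* E861A over wild type with its 95% interval, above the dotted line for the 9 genes and below it for other complement genes that passed the CPM filter. *C2* (open circle) is from the filterByExpr fit and *Cfb* (open square) from the fit without a filter. The interval of *C4b*, from 0.73 to 1.13, lies farthest from 0.

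Levels of different genes were compared per kilobase of exon that no other gene shares on the strand. In wild-type brain the order was *C1qa* (15.7 ± 1.12 CPM per kb, SD, n = 3), *C1qb* (12.9 ± 1.55), *C1qc* (7.72 ± 0.564), *C4b* (2.80 ± 0.369), *Serping1* (1.88 ± 0.0704), *C3ar1* (0.525 ± 0.0512), *C3* (0.286 ± 0.106), *C2* (0.262 ± 0.0803) and *Cfb* (0.236 ± 0.127). The order was the same in *Adar1* E861A brain, where *C4b* had 5.34 ± 0.591 CPM per kb. The transcripts for the recognition molecule were thus more abundant than that for C4, and those for C3, C2 and factor B were the scarcest of the 9. In wild-type brain neighbours from *C1qa* down to *C3* did not overlap over the 3 libraries, whereas the libraries of *C3*, *C2* and *Cfb* overlapped and their order was not resolved. The level of *Cfb* rests on 579 bp of unshared exon. The level of *C4b* was divided by all 5695 bp of its exons. Reads that fit *C4a* equally would not have been counted, so the level of *C4b* per kilobase may be too low.

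The rest of the complement system was examined with a list of 44 genes, of which 43 matched a gene in the table and 14 passed the CPM filter. None of the 14 was called by edgeR, 3 had an unadjusted p under 0.05, and DESeq2 and limma-voom also called 0. The log2 fold change was above 0 for 9 and below 0 for 5, with a median of 0.036. Among the most abundant, *Clu* (clusterin, a fluid-phase inhibitor of the terminal complex) had 317.9 ± 17.3 and 331.4 ± 11.5 CPM in *Adar1* E861A and wild-type brain (SD, n = 3). The log2 fold changes of *Clu*, *Vtn* (vitronectin) and *Susd4* (a membrane regulator) were -0.06, -0.11 and 0.02, with adjusted p between 0.756 and 0.934. *Csmd1*, a large membrane protein that inhibits complement, had 191.5 ± 8.65 against 169.4 ± 7.20 CPM (SD, n = 3), and differed by 0.18 ± 0.05 (SE) on the log2 scale at an adjusted p of 0.241. With the replicate block *Csmd1* was called, at an adjusted p of 0.0215. The 29 matched genes that failed the CPM filter included *C4a* and the 6 terminal components, and 0 of the 24 listed genes in the filterByExpr fit was called. The other genes with an unadjusted p under 0.05, named after their values were seen, were *Cr2* (complement receptor 2; 0.40 ± 0.13, adjusted p 0.371) and *Cd59a* (an inhibitor of the terminal complex; 0.25 ± 0.11, adjusted p 0.547).

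Genes around *C4b*, *Cfb* and *C2* in the MHC class III region were listed to see whether the difference extended along the chromosome. Of 12 neighbours, 9 were tested, 0 were called by edgeR, and 1 had an unadjusted p under 0.05. Their median log2 fold change was -0.026. The 5 most abundant, *Ehmt2*, *Skiv2l*, *Neu1*, *Stk19* and *Nelfe*, had log2 fold changes between -0.07 and -0.01. *Hspa1b*, a heat shock gene named after its value was seen, had 0.87 with an adjusted p of 0.373 by edgeR. Its groups overlapped, at 15.9, 9.11 and 5.19 CPM in *Adar1* E861A brain against 5.21, 4.16 and 7.21 CPM in wild type. The highest value was that of *Adar1* E861A replicate 1, the library with pituitary transcripts.

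Markers of cell types were read beside the complement genes. Of 11 microglial markers 0 were called, and their summed level was between 177.6 and 198.0 CPM in *Adar1* E861A brain and between 195.3 and 197.7 CPM in wild type. For reactive astrocytes 0 of 6 tested markers were called, and their sums overlapped, at 55.1 to 62.0 against 53.1 to 62.6 CPM. Of 8 astrocyte markers none was called, but their sums were separate, at 5540 to 5932 against 4916 to 5313 CPM, most of it from *Slc1a2*. Markers of border macrophages and blood myeloid cells overlapped, at 14.6 to 22.8 against 12.2 to 15.8 CPM. The highest sum was that of *Adar1* E861A replicate 3, also the library with the most *C4b*, which stood apart for the neutrophil genes *S100a8* and *S100a9*, at 94 and 111 counts against 12 to 29 and 16 to 39 in the other libraries. Without it the log2 fold change of *C4b* was 0.86, with an adjusted p of 0.00739 by edgeR. Liver transcripts, a source of plasma complement, summed to between 0.407 and 5.66 CPM against between 0.628 and 3.21 CPM.

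Other marker lists shifted between the genotypes, the meningeal list upward like *C4b* and the endothelial, choroid plexus and neuronal lists downward. Of 8 meningeal fibroblast and mural markers 2 were called, both higher, *Col1a2* (0.42 ± 0.08, SE, adjusted p 0.0199) and *Col3a1* (0.57 ± 0.11, SE, adjusted p 0.0316). *Col1a1* had 0.76 ± 0.17 (SE) with an adjusted p of 0.0804, and was called in the filterByExpr fit, at an adjusted p of 0.0297. Of the 8, 6 had a log2 fold change above 0, and *Slc6a13* and *Pdgfrb* were below 0, at -0.09 and -0.04. *Lum*, among the 6, passed the CPM filter through the *Adar1* E861A group alone, so its inclusion already depended on its level there. The summed level of the 8 markers was between 163.4 and 187.8 CPM in *Adar1* E861A brain and between 143.4 and 161.6 CPM in wild type. Of 6 endothelial markers 0 were called and 6 had a log2 fold change below 0, with sums between 105.4 and 134.9 against between 135.3 and 162.9 CPM. In the filterByExpr fit *Flt1* was called lower, at -0.38 ± 0.08 (SE) with an adjusted p of 0.0445. Neuronal markers had 0 of 6 called, with 5 below 0 and 1 above 0. Their sums were separate, at 3827 to 3938 against 3953 to 3990 CPM. Of 6 choroid plexus markers 0 were called and 6 were below 0, with sums between 237.1 and 356.5 against between 419.2 and 428.6 CPM, of which *Ttr* was the greater part. Among these, *Folr1* and *Kcne2* passed the CPM filter through the wild-type group alone, where their means were higher. Their presence among the tested genes already depended on that level, so the count below 0 is given as a description. The defining markers of these cell types were above 0 in every library. Their part in the difference of *C4b*, *Serping1* and *C3* was not tested.

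**Figure D4:**
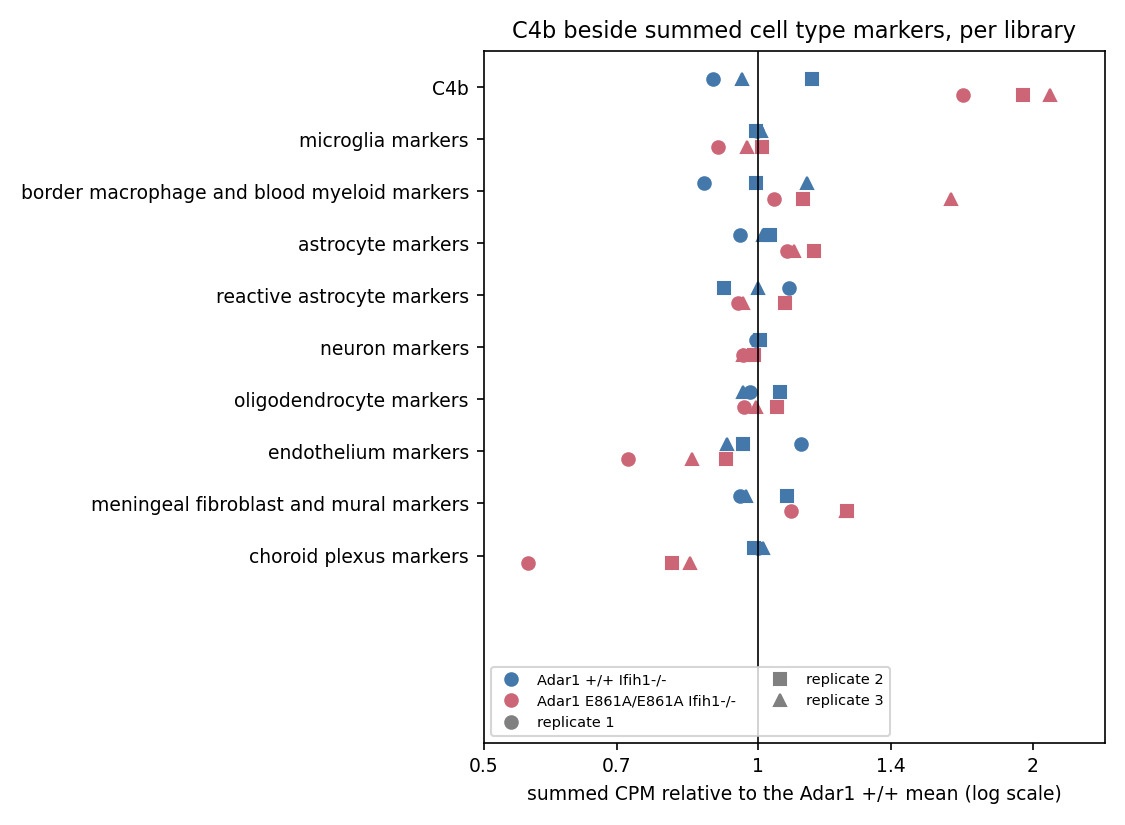
*C4b* and the summed CPM of 9 cell type marker lists in each library, divided by the wild-type mean, on a log scale, with wild type in blue, *Adar1* E861A in red and circles, squares and triangles for replicates 1, 2 and 3. *C4b* is the item with the largest shift to the right, and the meningeal and astrocyte sums shift to the right without overlap. The endothelial, choroid plexus and neuronal sums shift to the left, also without overlap.

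The genes whose pattern over the 6 libraries was most like that of *C4b* were sought among 13642 tested genes outside the 9, by the root mean square difference of centred log2 CPM. The nearest was *Lgals3bp* (galectin-3-binding protein, a secreted glycoprotein), at a difference of 0.0618, followed by *Irgm2* (an interferon-inducible GTPase) at 0.0904 and *Pkd2l1* (a cation channel subunit) at 0.119. *Lgals3bp* had 13.0, 15.6 and 16.6 CPM in *Adar1* E861A brain and 7.04, 8.18 and 7.85 CPM in wild type, with the groups separate. *Irgm2* had 4.31, 5.35 and 5.87 CPM against 2.37, 2.77 and 2.23 CPM, also separate. These genes were picked for their likeness to *C4b* over both genotypes. Their separation, fold changes and p-values therefore follow from the choice and are given as descriptions. Both were called, with log2 fold changes of 0.97 ± 0.10 and 1.07 ± 0.15 (SE) and adjusted p of 1.48e-04 and 0.00157 by edgeR. *Pkd2l1* had 2.38, 2.51 and 3.05 CPM in *Adar1* E861A brain against 1.45, 1.81 and 1.31 CPM in wild type. It passed the CPM filter through the *Adar1* E861A group alone, so its presence among the tested genes already depended on its level there. Its log2 fold change was 0.78 ± 0.17 (SE), with an adjusted p of 0.0714 by edgeR.

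Promoter windows, from 250 bases before to 50 bases after the start site, were taken from a table of RefSeq sequences (GRCm38.p6), in which 4 of the 9 genes were matched, *C1qb*, *C1qc*, *C3* and *C3ar1*. None of the 4 held, on either strand, the core of an interferon-stimulated response element (a pair of GAAA blocks with 2 bases between them) or TTCNNNGAA, the core of a STAT site, and these letters occurred in 3.44% and 8.3% of 32851 windows. *C4b* and *Serping1* were not analysed here in this respect.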

How the data were processed

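Total RNA of whole brain was measured in 3 libraries per genotype, after Sequin spike-in and ribosome depletion, with a stranded kit and 75 bp paired-end reads from 1 pooled NextSeq500 run. The authors aligned reads to NCBIM37 (mm9) with STAR and deposited its raw gene counts; the submitters' processing notes name Trimmomatic 0.36 and STAR 2.5.2a. The strand column taken is not given in the sources used here. The deposited CPM tables and the authors' table of fold changes, average expression and false discovery rates were not used. All 37310 gene identifiers matched GENCODE vM1, and 0 rows lacked a gene.

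Counts were analysed with edgeR 4.0.16 in R 4.3.3. The 13649 genes that reached a CPM of 2 in all 3 libraries of 1 genotype or the other were tested. Libraries were scaled by TMM, and the quasi-likelihood test was run without covariates. P-values were adjusted over all tested genes (Benjamini-Hochberg), and genes under 0.05 are referred to as called. Genes failing the filter were read from fits over 19366 (filterByExpr) or 29282 genes (any count). Alternatives were RLE factors, column totals, DESeq2 1.42.0, limma-voom (limma 3.58.1), the replicate block and the omission of each library. The fit was tested on simulated data. The genes, gene lists and tests were chosen with earlier results of these data known. All members were named, with the called and 5 most abundant genes of the other lists and the 3 genes nearest to a called member; 1 of the listed genes is not reported here.

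Replicate numbers are shared by the genotypes. Deviations from the genotype means correlated at r = 0.221, 0.329 and 0.112 across 13649 genes for replicates 1, 2 and 3, so pairing by number was assumed in the blocked alternative; the values given are otherwise from the fit without the block. No source of the pairing is given, and unlike replicate numbers were not compared, so the r values alone cannot establish it. Floors of 3 counts cover counting error only.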

Additional observations from a re-analysis of the deposited data

How the results depend on the processing

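*C4b* was called and higher under all 13 alternatives, with log2 fold changes of 0.855 to 1.04 and adjusted p of 3.81e-06 to 0.00739 when single libraries were left out. Of 99 alternative values for the log2 fold changes of the members, 92 kept their direction and side of the threshold. Without a filter, 3 members were called, *Serping1* at 0.422 and *C3* at 0.632 in addition, and 2 neighbours, *Hspa1a* and *Hspa1b*. That fit pooled the spread over genes. Without single libraries the log2 fold change of *C1qb* ran from -0.0791 to 0.0693, that of *C2* from -0.0446 to 0.391 and that of *C3ar1* from -0.0314 to 0.204. The sign turned for *C1qb* without *Adar1* E861A replicate 2 (-0.0273) or wild-type replicate 1, for *C2* without *Adar1* E861A replicate 3 (-0.00245) or wild-type replicate 2, and for *C3ar1* without *Adar1* E861A replicate 3. The cause was not tested. Genes called in all numbered 69, and 110 with filterByExpr, 376 without a filter, 158 with the replicate block and 42 to 111 without single libraries, the lowest without *Adar1* E861A replicate 3. The block called 1 other complement gene, *Csmd1*, and changed no call among the members. At 26853488 to 38076753 counts per library, the 95% intervals of *C2* and *Cfb* included both 0 and the value of *C3*.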
